A study of Mus musculus with 6 samples.

Results

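The interferon response and MHC class I genes described here are a set of 38 gene names that covers interferon receptors, their transcription factors, sensors and editors of foreign RNA, antiviral effectors and the class I antigen presentation pathway. The members were chosen by name, with earlier results of these data known. They are the rows of the deposited table whose gene identifier is on the list. Of the 38 names, 37 had a row among the 40413 rows of the table, and the remaining name, Ddx58, is the earlier symbol of Rigi, which has its own row. RNA was measured by ribosome-depleted total RNA sequencing in 6 libraries of N2A-A5, a derivative of the mouse neuroblastoma line Neuro-2a that the labels call acceptor cells. The 96 h group (3 libraries) was kept for 96 h in differentiation medium with 1% fetal bovine serum and 10 µM retinoic acid, without blasticidin. The 0 h group (3 libraries) was undifferentiated and grew in 10% fetal bovine serum with 10 µg/mL blasticidin and no retinoic acid. Retinoic acid, serum, blasticidin and days in culture all differ between the groups, and their contributions cannot be told apart. All libraries come from a single derived line, and nothing in the labels describes infection or added interferon. The study asks which transcripts differ between the undifferentiated and the differentiated state.

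Interferons are secreted signals that bind paired receptor chains at the cell surface and switch on antiviral genes through JAK kinases and STAT factors. Type I interferon acts largely through a complex of STAT proteins with IRF9, which binds an interferon-stimulated response element (ISRE), while interferon gamma acts through STAT dimers at a gamma-activated site (GAS). MHC class I molecules, made of a heavy chain and beta-2 microglobulin, show peptides to cytotoxic T cells, and neurons and neuroblastoma cells are known for low class I levels.

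Letters matching these elements were looked for in promoter windows (250 bases before to 50 bases after each RefSeq start site, GRCm38.p6), on both strands. ISRE was written as GAAANNGAAA and GAS as TTCNNNGAA. Windows were found for 33 of the 37 genes. ISRE letters stood in the windows of 13 of these 33 genes (39.4%), against 3.99% of all 27025 genes with a window. GAS letters stood in 11 of the 33 (33.3%), against 9.55% of all genes. A stretch of 100 bases is printed for 7 genes, in the direction of transcription, to show the elements in members that rose, fell, did not pass the test or were too scarce to test. The capitals mark ISRE letters, or GAS letters for Irf1. The stretches lie at chr2:122147518-122147617 (plus strand) for B2m, chr10:128270248-128270347 (plus) for Stat2, chr11:53769894-53769993 (plus) for Irf1, chr8:46739495-46739594 (plus) for Irf2, chr4:156200827-156200926 (minus) for Isg15, chr8:71537533-71537632 (minus) for Bst2 and chr19:34640755-34640854 (plus) for Ifit1.
B2m: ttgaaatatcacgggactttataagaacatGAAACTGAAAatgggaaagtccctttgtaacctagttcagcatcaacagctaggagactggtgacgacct
Stat2: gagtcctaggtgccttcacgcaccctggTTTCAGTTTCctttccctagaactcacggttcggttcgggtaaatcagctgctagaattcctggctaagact
Irf1: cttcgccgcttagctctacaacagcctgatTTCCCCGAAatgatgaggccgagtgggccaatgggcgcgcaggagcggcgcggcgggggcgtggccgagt
Irf2: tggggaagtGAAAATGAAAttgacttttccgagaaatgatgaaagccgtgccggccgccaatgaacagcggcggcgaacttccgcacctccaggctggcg
Isg15: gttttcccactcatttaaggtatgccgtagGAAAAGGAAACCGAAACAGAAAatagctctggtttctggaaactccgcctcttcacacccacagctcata
Bst2: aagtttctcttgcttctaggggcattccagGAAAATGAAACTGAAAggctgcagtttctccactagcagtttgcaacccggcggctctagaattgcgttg
Ifit1: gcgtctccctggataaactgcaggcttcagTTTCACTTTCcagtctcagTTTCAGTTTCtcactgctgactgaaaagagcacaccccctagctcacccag
The capitals of Isg15 hold 3 overlapping ISRE matches, those of Bst2 hold 2 that overlap each other, and Ifit1 has 2 separate matches. The GAS match of Bst2 overlaps the first of its ISRE matches. The printed stretch of Irf2 also holds a GAS match (TTCCGAGAA), which is left in lower case.

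The 6 libraries held 16.8 to 19.0 M counts (M for mega) at 96 h and 17.6 to 20.9 M at 0 h. The predicted gene Gm26917 took 28.7% to 31.7% of counts at 96 h and 18.7% to 22.7% at 0 h, so the scaling between libraries bears on every small fold change. All members together took 0.0601% to 0.0676% of counts at 96 h and 0.0632% to 0.0663% at 0 h. Values below are CPM, counts scaled to a common depth with TMM-adjusted library sizes, unless counts are named, and means are given ± SD over 3 libraries. Of 12 sympathetic neuroblast markers, 11 were tested, and their summed level was 1728 to 1859 CPM at 96 h and 1704 to 1781 CPM at 0 h. Of these 11, 8 fell and 1 rose (median log2 fold change -0.37): Prph rose to 1043 CPM at 96 h, against 567 CPM at 0 h, and made up much of the sum, while Chga fell by 0.76 and Dbh by 3.18. The part of these markers in the results below was not tested. A set of 12 leukocyte and macrophage markers summed to 4.29 to 5.25 CPM at 96 h and 3.39 to 3.91 CPM at 0 h, with Aif1 and Lyz2 at 0 in every library and Ptprc at 3 counts at 96 h and 0 at 0 h. Most of that sum was Cd3e, at 2.66 CPM at 96 h and 1.80 CPM at 0 h, and Fcgr3, at 1.71 CPM at 96 h and 1.70 CPM at 0 h, neither of which passed. A set of 8 fibroblast markers summed to 17.5 to 20.4 CPM at 96 h and 6.25 to 6.46 CPM at 0 h; 3 of the 4 tested (Dcn, Pdgfra and Pdgfrb) rose, Col3a1 and Lum were at 0, and their part in the results below was not tested. In bulk RNA, fewer cells of a kind and less RNA per cell cannot be told apart.

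Of the 37 genes, 28 had enough counts to be tested across all 13705 genes with edgeR's quasi-likelihood test (Benjamini-Hochberg adjusted p under 0.05), and 16 of these 28 passed (57.1%), against 57.4% of all tested genes. The members thus passed about as often as any gene. At 96 h, 11 members were higher (39.3%, against 28.7% of all tested genes) and 5 were lower (17.9%, against 28.8%). The median log2 fold change was 0.37 over the tested members and 0.03 over all tested genes. Scaling by library size alone moved the median of all genes by -0.25 and gave 7 members higher and 7 lower, beside 2409 genes higher and 5849 lower in all, and upper-quartile scaling gave 13 members higher and 3 lower, beside 4526 genes higher and 3342 lower in all. The 96 h libraries all lay above the 0 h libraries in 15 tested members (32.4% of all tested genes did so) and all below them in 5 (31.7% of all), and the groups overlapped in 8; 64.1% of all tested genes had groups apart, against 71.4% of the tested members. Of the 28 tested members, 3 (Oasl1, Oasl2 and Stat2) passed with a rise of at least 2-fold, and 0 fell by that much. Among all 13705 tested genes, 1608 rose and 517 fell by that much. The 9 genes too scarce to test were Irf7, Ifih1, Ifit1, Ifit3, Oas1a, Mx1, Rsad2, Usp18 and Nlrc5.

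**Figure D1:**
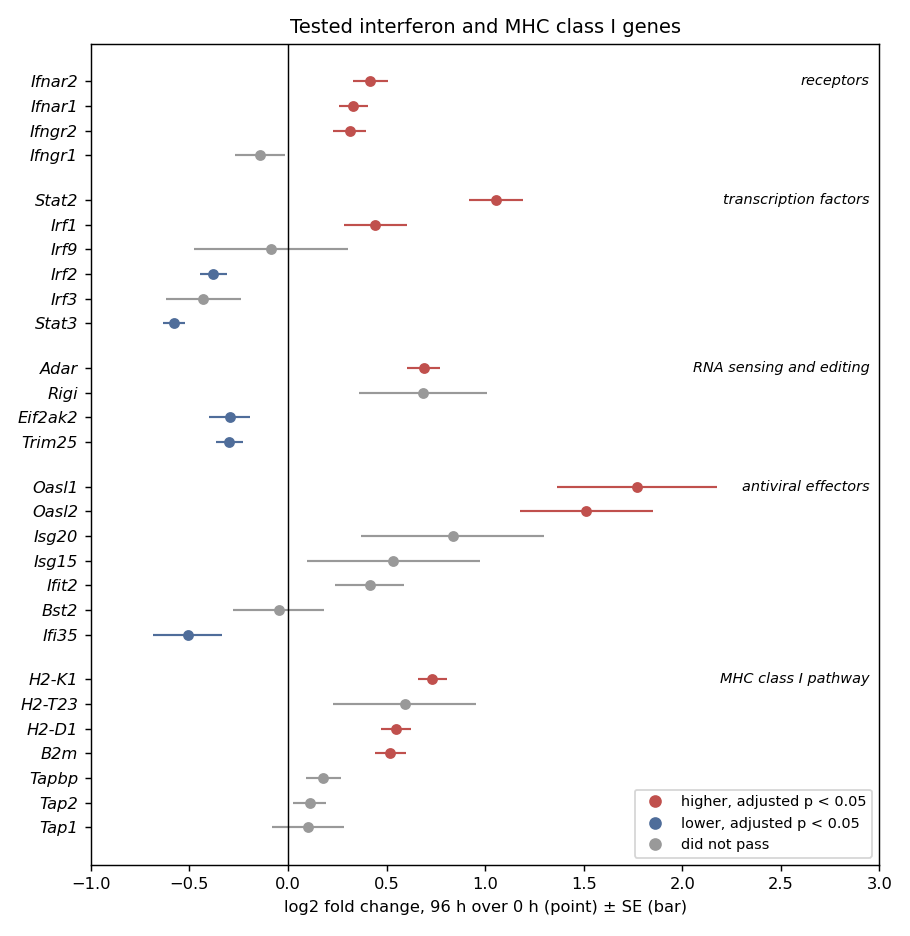
Log2 fold change of 96 h over 0 h (horizontal axis) for the 28 tested members in groups by role, with points for edgeR estimates and bars for the standard error. The values run from -0.58 for Stat3 to 1.77 for Oasl1, and the 11 genes that rose lie to the right of the 5 that fell.

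Transcripts of 3 of the 4 interferon receptor chains were modestly higher at 96 h. Ifnar1, a chain of the type I interferon receptor, stood at 35.6, 37.5 and 34.9 CPM at 96 h and at 28.2, 30.7 and 26.7 CPM at 0 h. Ifnar2, its partner and the chain with the long signalling tail, stood at 20.3, 22.1 and 22.6 CPM at 96 h and at 15.1, 17 and 16.6 CPM at 0 h. The groups did not overlap for either chain. The log2 fold changes were 0.33 ± 0.07 (SE) for Ifnar1 and 0.42 ± 0.09 for Ifnar2, with edgeR adjusted p of 0.00170 and 0.00110. Ifngr2, the chain of the interferon gamma receptor that brings in JAK2, averaged 33.2 ± 3.1 CPM at 96 h and 26.7 ± 1.7 CPM at 0 h (log2 fold change 0.31 ± 0.08, edgeR adjusted p = 0.00621). Ifngr1, the ligand-binding chain, had 11.1, 9.82 and 9.80 CPM at 96 h and 12.1, 11.7 and 10.08 CPM at 0 h, with overlapping groups and no pass (edgeR adjusted p = 0.356). All 3 rises depended on the scaling: they also passed with DESeq2 size factors and with upper-quartile scaling, but not by library size alone. By library size alone the log2 fold changes were 0.08 for Ifnar1, 0.17 for Ifnar2 and 0.06 for Ifngr2. The edgeR adjusted p values were then 0.473, 0.173 and 0.554, while Ifngr1 passed as lower at -0.40 (0.0204). Unscaled counts summed over 3 libraries were 1803 at 96 h and 1781 at 0 h for Ifnar1.

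The interferons themselves were close to absent. Of 21 ligand genes (alpha, beta, gamma, lambda and related interferons), 16 had 0 counts in all 6 libraries, Ifnb1 among them, and 0 could be tested. Ifng had 1 count at 96 h and 0 at 0 h, and Ifnl2, a lambda interferon, had 3 counts at 0 h and under 1 estimated count at 96 h.

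Among the transcription factors, 2 rose, 2 fell, 2 did not pass and 1 was too scarce to test. Stat2, the partner of IRF9 in the type I interferon complex, had 15.0, 13.6 and 13.5 CPM at 96 h and 7.54, 5.78 and 6.94 CPM at 0 h. Each 96 h library was well above each 0 h library, and the log2 fold change was 1.06 ± 0.14 (2.08-fold, edgeR adjusted p = 1.67e-05). Irf9, the DNA-binding subunit of the same complex, had 1.80, 0.701 and 1.89 CPM at 96 h and 1.45, 1.79 and 1.41 CPM at 0 h. Replicate 2 at 96 h was the lowest of all 6 and the groups overlapped, with a log2 fold change of -0.09 that turned to 0.25 without that library and to 0.03 without 0 h replicate 2, and no pass in any of these fits. Stat3, which carries signals of the interleukin-6 family and restrains interferon responses, had 46.3, 46.9 and 44.0 CPM at 96 h and 68.1, 68.6 and 68.3 CPM at 0 h. Its libraries were tightly grouped and it fell by 0.58 ± 0.06 on the log2 scale (edgeR adjusted p = 1.08e-06).

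Of the IRF family, Irf1 rose and Irf2 fell. Irf1, an activator of class I and antiviral genes, had 10.7, 10.5 and 11.5 CPM at 96 h and 6.15, 8.81 and 9.04 CPM at 0 h. The groups did not overlap and Irf1 rose by 0.44 ± 0.16 (edgeR adjusted p = 0.0290), but it no longer passed once 96 h replicate 1 (0.0572), 96 h replicate 3 (0.0919) or replicate 1 of 0 h (0.111) was dropped, and by library size alone it stood at 0.19 (0.327). Irf2, known as an antagonist of IRF1 at shared sites, had 26.0, 26.9 and 25.2 CPM at 96 h and 34.6, 33.7 and 33.3 CPM at 0 h. Its groups were clearly apart, and it fell by 0.38 ± 0.07 on the log2 scale (edgeR adjusted p = 3.32e-04). Irf3, which is activated by viral nucleic acid sensors, had 6.33, 6.72 and 8.91 CPM at 96 h and 11.2, 11.0 and 7.42 CPM at 0 h. In each group replicate 3 lay toward the other group, so the groups overlapped (log2 fold change -0.43, edgeR adjusted p = 0.0676). Irf3 passed as lower without 96 h replicate 3 (-0.60, 0.0260), without 0 h replicate 3 (-0.60, 0.0117), with no filter (-0.47, 0.0159) and by library size alone (-0.68, 0.00957). Irf7, the amplifier of type I interferon production, had 6 counts over the 96 h libraries and 17 over the 0 h libraries and was too scarce to test. Its ratio was 0.437, with an exact 95% interval of 0.141 to 1.16 that covers counting error only.

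Of the RNA sensors and editors, 1 rose and 2 fell. Adar, the adenosine deaminase that edits paired RNA and keeps it from sensors, had 64.9, 57.3 and 61.7 CPM at 96 h and 43.4, 35.3 and 35.4 CPM at 0 h. The groups were apart, and Adar rose by 0.69 ± 0.08 on the log2 scale (1.61-fold, edgeR adjusted p = 8.79e-06). Trim25, a ubiquitin ligase that acts in RIG-I signalling, had 63.2, 54.0 and 57.1 CPM at 96 h and 67.8, 73.4 and 72.6 CPM at 0 h. Its groups did not overlap, and it fell by 0.30 ± 0.07 (edgeR adjusted p = 0.00173). Eif2ak2, the kinase PKR that halts translation on sensing viral RNA, had 23.5, 24.8 and 21.4 CPM at 96 h and 25.2, 27.2 and 33.3 CPM at 0 h. It fell by 0.30 ± 0.10 (edgeR adjusted p = 0.0250) with replicate 3 at 0 h the highest, and did not pass without that library (0.102), without 96 h replicate 1 (0.0520), without 96 h replicate 3 (0.103) or with upper-quartile scaling (0.0925). Rigi, the RNA sensor RIG-I, had 2.06, 3.33 and 2.23 CPM at 96 h and 1.19, 1.96 and 1.57 CPM at 0 h. These groups did not overlap, yet the change did not pass (0.69 ± 0.32, edgeR adjusted p = 0.0860). Ifih1, the sensor MDA5, had 1 count at 96 h and 5 at 0 h. The ratio was 0.248, with an exact 95% interval of 0.00523 to 2.21 that covers counting error only, as for the other ratios of summed counts here.

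The antiviral effectors were low in both states, and among those tested the pair of OAS-like genes stood out by fold. Oasl1, which in mouse restrains IRF7 translation, had 4.60, 4.38 and 4.68 CPM at 96 h and 1.91, 0.383 and 1.78 CPM at 0 h. The 96 h libraries were close together and replicate 2 was the lowest at 0 h, and Oasl1 rose by 1.77 ± 0.41 on the log2 scale (3.41-fold, edgeR adjusted p = 0.00197). Oasl2, the mouse OAS-like protein with synthetase activity, had 3.0, 2.16 and 2.28 CPM at 96 h and 0.930, 0.681 and 0.993 CPM at 0 h. Its groups did not overlap and it rose by 1.51 ± 0.34 (2.85-fold, edgeR adjusted p = 0.00164). Ifi35, an interferon-induced leucine zipper protein, had 6.73, 5.26 and 5.23 CPM at 96 h and 7.95, 9.24 and 7.21 CPM at 0 h. It fell by 0.51 ± 0.17 (edgeR adjusted p = 0.0233), but did not pass when 96 h replicate 2 (0.0661), 96 h replicate 3 (0.0745) or replicate 2 of 0 h (0.0953) was left out, nor with upper-quartile scaling (0.0515).

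The other 4 tested effectors, Isg15, Bst2, Isg20 and Ifit2, did not pass. Isg15, a ubiquitin-like modifier, had 1.07, 1.05 and 1.78 CPM at 96 h and 0.568, 1.36 and 0.731 CPM at 0 h, with overlapping groups (0.53, edgeR adjusted p = 0.315). Bst2, the tetherin that holds budding virus on the cell, averaged 3.04 ± 0.15 CPM at 96 h and 3.14 ± 0.37 CPM at 0 h (-0.05, edgeR adjusted p = 0.874), and the estimate turned to 0.03 with upper-quartile scaling and to 0.04 without 0 h replicate 3. Isg20, an exonuclease, had 18, 15 and 13 counts at 96 h and 7, 12 and 13 counts at 0 h; after scaling the groups did not overlap, and the change did not pass (0.84, edgeR adjusted p = 0.142). Ifit2, a protein of the IFIT family that binds viral RNA, averaged 7.29 ± 0.93 CPM at 96 h and 5.47 ± 0.54 CPM at 0 h, with groups apart. Its log2 fold change of 0.41 missed the threshold (edgeR adjusted p = 0.0564), but passed with upper-quartile scaling (0.0259), a stricter filter (0.0430), limma-voom (0.0481) or the structural RNA genes left out (0.0482).

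The remaining effectors had few counts, more at 96 h for some and more at 0 h for others. Ifit1, the cap-sensing IFIT protein, had 1, 1 and 0 counts at 96 h and 3, 3 and 13 counts at 0 h (ratio 0.130, interval 0.0147 to 0.540), with most of the 0 h counts in replicate 3. Ifit3, its partner, summed to 4 counts at 96 h and 1 at 0 h (ratio 4.95, interval 0.490 to 244). Oas1a, a synthetase that activates RNase L, summed to 13 counts at 96 h and 3 at 0 h (ratio 5.36, interval 1.47 to 29.3). Identical stretches make both uncertain, since 61.8% of the 31-base words of Ifit3 transcripts also occur in Ifit3b and 68.7% of those of Oas1a in Oas1g (GENCODE M21). Mx1, a dynamin-like antiviral GTPase that is defective in most inbred laboratory mice, had 10, 6 and 16 counts at 96 h and 1, 5 and 6 counts at 0 h. Rsad2, the enzyme viperin, had 3, 12 and 20 counts at 96 h and 2, 8 and 2 counts at 0 h. The ratio of summed counts was 3.30 (interval 1.65 to 7.04) for Mx1 and 3.61 (interval 1.83 to 7.64) for Rsad2. With no filter none of these 5 genes passed. The edgeR adjusted p was 0.0734 for Ifit1, 0.508 for Ifit3, 0.205 for Oas1a, 0.0984 for Mx1 and 0.0612 for Rsad2. Mx1 and Rsad2 met the filter in some fits without a single library. For Mx1 the edgeR adjusted p was 0.0357 without 96 h replicate 2 and 0.0372 without 0 h replicate 3. It did not pass without 0 h replicate 1 (0.138) or 0 h replicate 2 (0.0966). For Rsad2 the edgeR adjusted p was 0.0213 without 96 h replicate 1 and 0.0321 without 0 h replicate 2. It did not pass without 0 h replicate 1 (0.133) or 0 h replicate 3 (0.127). Usp18, the protease that removes ISG15 and damps the type I receptor, had 6, 9 and 7 counts at 96 h and 14, 9 and 10 counts at 0 h (ratio 0.825, interval 0.458 to 1.46).

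**Figure D2:**
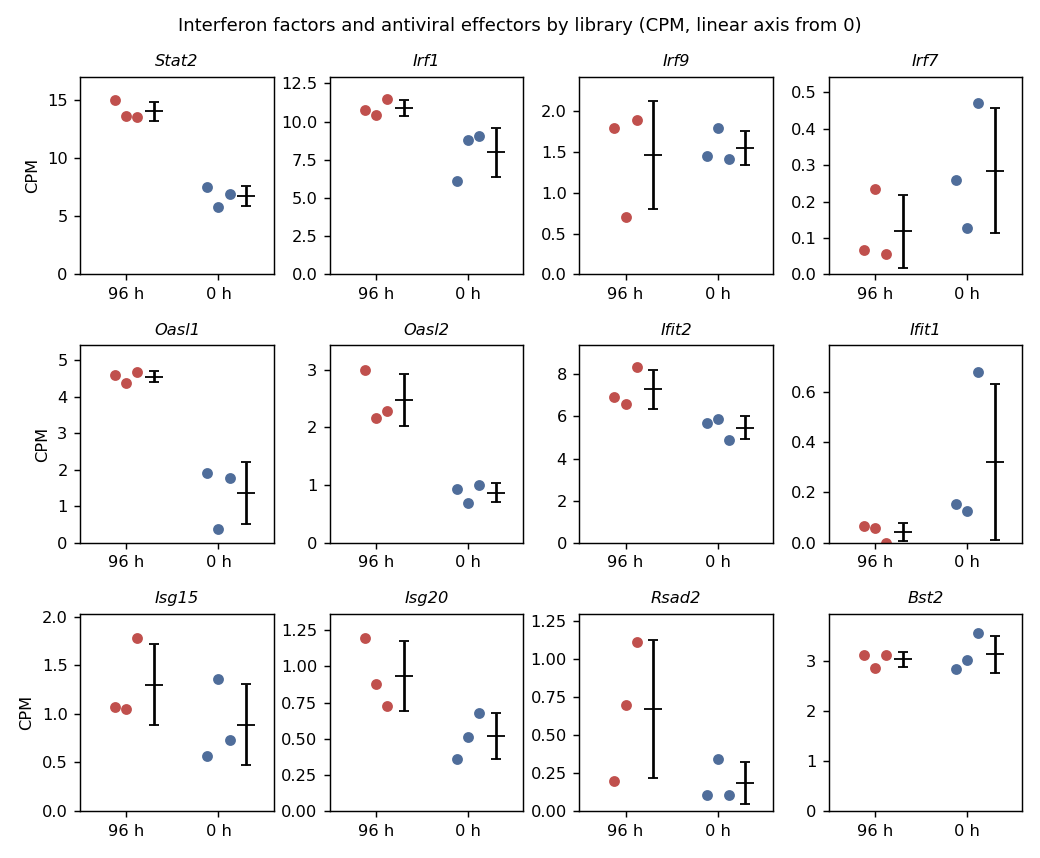
CPM of 4 transcription factors and 8 antiviral effectors in each library (vertical axes, linear from 0), 96 h left and 0 h right, with points for libraries and bars for mean ± SD (n = 3). Stat2, Oasl1 and Oasl2 have groups clearly apart, while Isg15, Bst2 and Irf9 overlap.

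The classical class I heavy chains and beta-2 microglobulin rose, and the peptide loading genes did not pass. H2-K1, a classical class I heavy chain, had 87.3, 85.4 and 97.2 CPM at 96 h and 53.4, 49.9 and 59.4 CPM at 0 h. H2-D1, the other classical heavy chain, had 103, 91.1 and 110 CPM at 96 h and 62.6, 73.0 and 71.8 CPM at 0 h. Neither gene had overlapping groups, and the log2 fold changes were 0.73 ± 0.07 (1.66-fold, edgeR adjusted p = 1.26e-06) for H2-K1 and 0.55 ± 0.08 (1.46-fold, 2.98e-05) for H2-D1. B2m, the shared light chain, had 66.0, 63.4 and 77.9 CPM at 96 h and 47.0, 46.5 and 51.5 CPM at 0 h. All 96 h libraries were above all 0 h libraries, and B2m rose by 0.52 ± 0.08 on the log2 scale (1.43-fold, edgeR adjusted p = 7.09e-05). All 3 genes also passed by library size alone.

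Per kilobase of the longest coding transcript, the same 3 genes were the most abundant members in both states. The level of B2m was 80.3 CPM per kb at 96 h and 56.2 at 0 h, that of H2-K1 55.6 at 96 h and 33.5 at 0 h, and that of H2-D1 48.2 at 96 h and 32.9 at 0 h. Irf2 came next among the members at 10.43 CPM per kb at 96 h and 13.6 at 0 h. At 96 h Trim25 (10.39) and Adar (10.37) were nearly level with Irf2. The lowest members were Ifih1 at 96 h (0.00339) and Ifit3 at 0 h (0.00813).

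Heavy chain genes are near copies of each other, which makes the split of reads between them uncertain. Of the 31-base words of H2-D1 transcripts, 26.7% also occur in other genes and 13.8% in H2-K1, and of those of H2-K1, 22.8% occur elsewhere and 11.1% in H2-D1. Genes outside this pair share words too: 8.18% of those of H2-D1 occur in H2-Q1 and 9.5% of those of H2-K1 in H2-Q10. A split of reads with such genes can still bear on the sum below. Class I alleles also differ between mouse strains, and how reads of the alleles of this line were assigned was not tested. The sum of H2-K1, H2-D1 and H2-T23, which does not depend on a split among them, was 192, 178 and 209 CPM at 96 h and 117, 124 and 132 CPM at 0 h. The sums did not overlap, averaging 193 ± 15.2 CPM at 96 h and 124 ± 7.68 CPM at 0 h, a ratio of 1.55. By library size alone the log2 ratio was 0.38, against 0.63 with TMM factors. H2-K1 made up 45.6%, 47.9% and 46.6% of the sum at 96 h and 45.7%, 40.1% and 44.9% at 0 h.

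H2-T23, the nonclassical heavy chain Qa-1, was far lower at 1.69 ± 0.082 CPM at 96 h and 1.09 ± 0.40 CPM at 0 h. Its groups did not overlap, but the change of 0.59 ± 0.36 did not pass (edgeR adjusted p = 0.179), and 24.5% of its 31-base words occur in other genes. Tap1 and Tap2 form the transporter that brings peptides into the endoplasmic reticulum, and Tapbp, tapasin, holds empty class I molecules at it. Tap1 averaged 5.20 ± 0.43 CPM at 96 h and 4.84 ± 0.26 CPM at 0 h (edgeR adjusted p = 0.661). Tap2 averaged 20.9 ± 1.0 CPM at 96 h and 19.3 ± 0.85 CPM at 0 h (edgeR adjusted p = 0.271). Tapbp averaged 24.2 ± 2.0 CPM at 96 h and 21.3 ± 1.5 CPM at 0 h (edgeR adjusted p = 0.101), and of the alternatives run passed only with upper-quartile scaling (0.26, 0.0236). The groups overlapped for these 3 genes, whose log2 fold changes of 0.10, 0.11 and 0.18 turned to -0.15, -0.14 and -0.08 by library size alone. Nlrc5, the transactivator of class I genes, had 18, 13 and 7 counts at 96 h and 3, 7 and 0 counts at 0 h, and the ratio was 4.70 (2.30 to 10.6). It did not meet the filter, and with no filter it was higher at 96 h (edgeR adjusted p = 0.0146). In the 4 fits without a single library in which Nlrc5 met the filter, the adjusted p was 0.0229 without 96 h replicate 3, 0.0193 without 0 h replicate 2, 0.0601 without 0 h replicate 1 and 0.0570 without 0 h replicate 3.

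**Figure D3:**
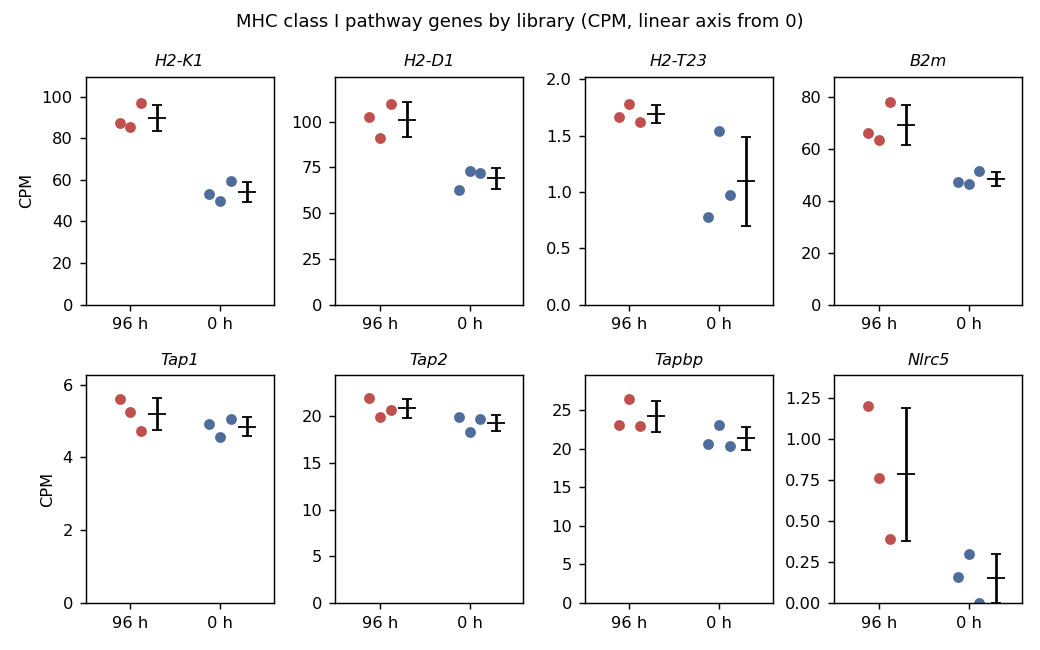
CPM of the 8 class I pathway genes in each library (vertical axes, linear from 0), 96 h left and 0 h right, with points for libraries and bars for mean ± SD (n = 3). H2-K1, H2-D1 and B2m have groups clearly apart, while Tap1, Tap2 and Tapbp overlap.

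The promoter letters were set beside the calls as a description. ISRE letters occurred in 2 of the 11 members that rose (B2m and Stat2), in 2 of the 5 that fell (Irf2 and Eif2ak2), in 4 of the 11 with a window that did not pass (Rigi, Isg15, Bst2 and H2-T23) and in 5 of the 6 with a window that were not tested (Ifih1, Ifit1, Ifit3, Oas1a and Rsad2). GAS letters occurred in 4 of the 11 that rose (Ifnar1, Ifnar2, Irf1 and Adar), in 3 of the 5 that fell (Irf2, Eif2ak2 and Ifi35), in 3 of the 11 that did not pass (Ifit2, Isg20 and Bst2) and in 1 of the 6 not tested (Oas1a). The windows of Oasl1, Oasl2, H2-K1 and H2-D1 held neither set of letters. When only bases before the start site counted, ISRE letters remained in 10 of the 33 genes (30.3%, against 3.46% of all genes) and GAS letters in 8 (24.2%, against 8.13%).

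**Figure D4:**
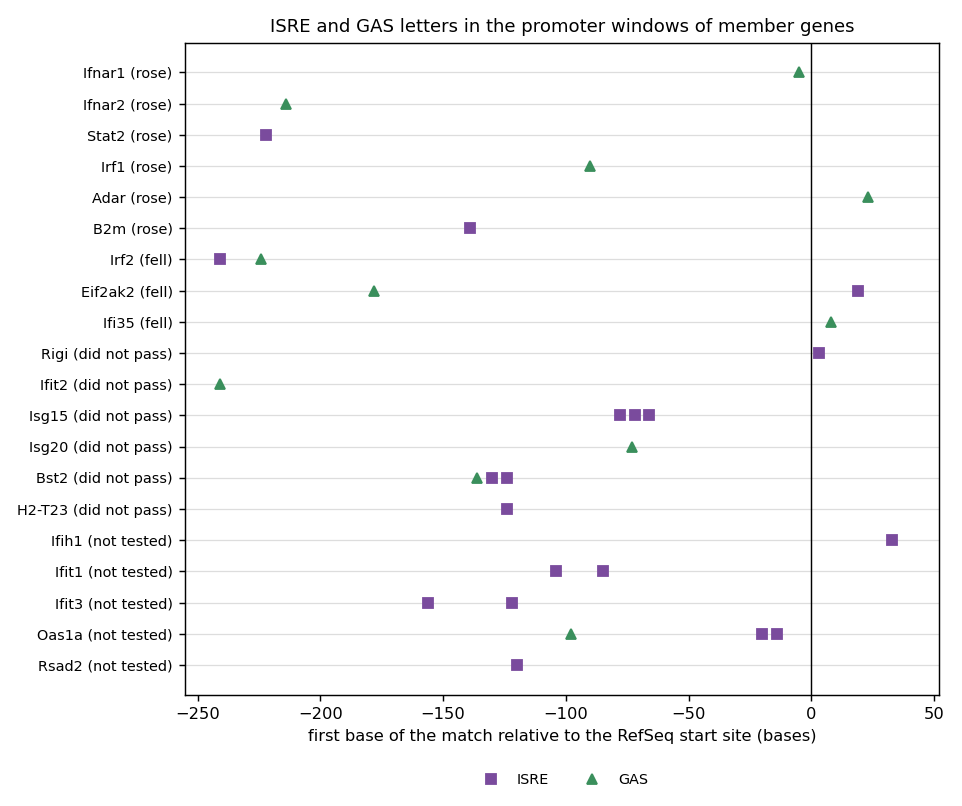
First base of each ISRE (squares) and GAS (triangles) match relative to the RefSeq start site (horizontal axis, bases) in the 20 members with a match, one row per gene with its call. Matches stand in genes that rose, fell, did not pass and were not tested.

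Other genes of the pathway were read from lists by role. Beside every list stand all tested genes, of which 28.7% were higher and 28.8% lower, with a median log2 fold change of 0.03. By library size alone 2409 of all genes were higher and 5849 lower, and with upper-quartile scaling 4526 and 3342. Of 17 tested genes of JAK and STAT signalling, 3 rose and 5 fell, with a median log2 fold change of -0.06. Jak2, the kinase of the interferon gamma receptor, averaged 24.1 ± 2.3 CPM at 96 h and 12.7 ± 0.92 CPM at 0 h (0.93, edgeR adjusted p = 2.41e-06), and Il6st, the shared receptor of the interleukin-6 family, rose by 0.61 (1.27e-06). Jak1, the kinase shared by both interferon receptor types, averaged 67.9 ± 6.2 CPM at 96 h and 90.7 ± 1.7 CPM at 0 h (-0.42, edgeR adjusted p = 8.46e-05), and the phosphatase gene Ptpn11 fell by 0.47 (1.13e-06). The count of lower genes was 3 without 96 h replicate 1, without 0 h replicate 2 or with upper-quartile scaling, and 8 by library size alone.

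Of 12 tested adaptors, kinases and other sensors, 2 rose and 4 fell (median -0.10). Tlr4, the endotoxin receptor, averaged 7.27 ± 0.62 CPM at 96 h and 1.24 ± 0.30 CPM at 0 h (2.54, edgeR adjusted p = 7.01e-07). Irf5, an interferon regulatory factor best known from myeloid cells, averaged 3.58 ± 0.079 CPM at 96 h and 0.798 ± 0.20 CPM at 0 h (2.15, edgeR adjusted p = 4.74e-05). Both are also leukocyte genes. The 12 leukocyte and macrophage markers, whose sums are given above, had 2 tested genes, Cd3e and Fcgr3, of which 0 passed in edgeR (0 also at an unadjusted p under 0.05), and their part in these rises was not tested. Samhd1, a nucleotide hydrolase that limits viral DNA synthesis, averaged 25.5 ± 0.71 CPM at 96 h and 68.4 ± 1.2 CPM at 0 h (-1.43, edgeR adjusted p = 3.82e-10). Tbk1, the kinase that activates IRF3, fell by 0.36 (edgeR adjusted p = 7.14e-04). Ikbke, its close relative, was chosen after its values were seen: it had 23 counts at 96 h and 0 at 0 h, at least 9.49-fold higher when the 0 h group is set to 3 counts in all.

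Of 61 further interferon-stimulated genes, 29 were tested, 10 rose and 4 fell, with a median of 0.10, and by library size alone 4 rose and 7 fell. Irgm2, an immunity-related GTPase, averaged 4.47 ± 0.50 CPM at 96 h and 0.870 ± 0.25 CPM at 0 h (2.37, edgeR adjusted p = 1.19e-05), and the secreted glycoprotein gene Lgals3bp rose by 0.73 (2.10e-06). Slfn9, a schlafen gene, averaged 7.56 ± 0.43 CPM at 96 h and 22.8 ± 0.94 CPM at 0 h (-1.59, edgeR adjusted p = 1.42e-08), and Pml, the organiser of nuclear bodies, fell by 0.91 (5.03e-06). Irgm2 and Slfn9 have close relatives with which estimation can share reads.

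Of 25 other class I heavy chains and relatives, 14 were tested, 6 rose and 0 fell, with a median of 0.90. Of all tested genes, 28.7% rose and 28.8% fell. No tested gene of the list was lower at an unadjusted p under 0.05 either, and 0 fell by DESeq2 or limma-voom. By library size alone 4 rose, beside 2409 of all genes. At an adjusted p of 0.01, 2 of the list rose, beside 3004 of all genes. Against a 1.5-fold change (glmTreat), 2 rose, beside 1515 of all genes. Fcgrt, the neonatal Fc receptor, averaged 7.18 ± 0.85 CPM at 96 h and 3.04 ± 0.67 CPM at 0 h (1.24, edgeR adjusted p = 2.15e-04). H2-M10.1, a class I-like gene of the M10 family, had 9.92, 11.5 and 12.4 CPM at 96 h and 0, 0.0852 and 0 CPM at 0 h. Its neighbour in that family H2-M10.2, named after its values were seen, had 41 counts at 96 h and 0 at 0 h, at least 16.9-fold higher on the same terms. Its estimated counts at 96 h were fractional (9.052, 15.211 and 16.989), and sharing of reads with H2-M10.1 was not tested. H2-Q1, among the 6 that rose, shares words with H2-D1, and the part of shared reads in its call was not tested.

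Of 14 genes of peptide supply and folding, 3 rose and 2 fell (median 0.10), and by library size alone 0 rose and 5 fell. Rfx5, a subunit of the factor that binds class I and class II promoters, rose by 0.55 ± 0.16 on the log2 scale (edgeR adjusted p = 0.00765), though by library size alone it did not pass (0.31, 0.106). Rfxap, another subunit of the same factor, fell by 0.53 (edgeR adjusted p = 1.09e-04). Psme1, of the proteasome activator induced by interferon gamma, averaged 82.2 ± 1.1 CPM at 96 h and 73.0 ± 1.8 CPM at 0 h (0.17, edgeR adjusted p = 0.0117), but did not pass without 0 h replicate 1 (0.0600) and stood at -0.08 by library size alone. Psme3, of the nuclear proteasome activator, fell by 0.52 (edgeR adjusted p = 8.80e-07). The count of rising genes in the list was 1 without 0 h replicate 1 or with no filter, and 5 with upper-quartile scaling or a stricter filter.

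Of 9 class II genes, H2-Aa, H2-Ab1, H2-Eb1 and H2-DMb1 were at 0 in every library, and 2 genes were tested. Cd74, the invariant chain of class II that also acts as a cytokine receptor, had 68.7, 61.0 and 66.3 CPM at 96 h and 29.2, 24.8 and 26.6 CPM at 0 h. Its groups were far apart, and it rose by 1.28 ± 0.07 on the log2 scale (edgeR adjusted p = 7.19e-09). H2-DMa, a chain of the class II peptide editor, rose by 0.66 ± 0.21 (edgeR adjusted p = 0.0156), but did not pass without replicate 2 of 96 h (0.0528), replicate 2 of 0 h (0.0653) or replicate 3 of 0 h (0.0528), nor by library size alone (0.117).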

How the data were processed

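The authors deposited estimated counts per gene, not normalised; the submitters' processing notes list Salmon 1.10.1, FastQC 0.12.1, the build mm39 and DESeq2 1.52.0. The annotation, the strand setting and the summing of transcripts were not given in the sources used here. Counts were rounded to whole numbers. In edgeR 4.0.16 (R 4.3.3), filterByExpr left 13705 genes, TMM factors scaled the libraries, and 96 h was compared with 0 h by the quasi-likelihood F test (adjusted p threshold 0.05 over all genes). SE is the size of the log2 fold change over the square root of F. Alternatives were other scalings and filters, DESeq2 1.42.0, limma-voom (limma 3.58.1), other thresholds, a replicate block, structural RNA genes left out, and each library left out in turn; the other scalings of the class I sum were chosen after seeing the data.

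Members and lists were chosen with earlier results of these data known. Every member is named, as are, per list, 2 higher and 2 lower genes with the smallest adjusted p. Shared 31-base words and lengths came from GENCODE M21 (GRCm38) and promoters from RefSeq (GRCm38.p6) by symbol, so their build differs from mm39. Windows were found for 33 of 37 genes, not for Mx1, Usp18, Tap2 and Nlrc5. Replicates are called biological in the design text; replicates differed by more than sampling noise (chi-square per degree of freedom 6.32 to 12.9). Some marker genes are not reported here.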

Additional observations from a re-analysis of the deposited data

How the results depend on the processing

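The count of members higher at 96 h was 11 and that of members lower was 5. By library size alone 7 members were higher, and 2409 of all genes. Against a 1.5-fold change (glmTreat), 4 members were higher (H2-K1, Oasl1, Oasl2 and Stat2) and 0 lower, beside 1515 genes higher and 852 lower. The count of lower members was 3 with upper-quartile factors and 3 at an adjusted p of 0.01, beside 3342 and 3278 genes lower in all. Leaving out each library in turn gave 10 to 13 members higher and 4 to 5 lower, with 3458 to 3796 genes higher and 3683 to 3807 lower. The direction turned for Irf9 (-0.33 to 0.25 over single libraries left out) and Bst2 (-0.12 to 0.040 likewise, and 0.034 with upper-quartile factors), and by library size alone for Tap1 (-0.15), Tap2 (-0.14), Tapbp (-0.075) and Psme1 (-0.080). The class I log2 ratio was 0.71 with all 23 H2 class I genes summed. That wider sum includes H2-M10.1, at 11.3 CPM at 96 h and 0.028 CPM at 0 h. Of 474 fold changes of members under the alternatives, 427 kept direction and call, 30 lost the call, 10 gained it and 7 turned. The causes were not tested.

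A block for the replicate number gave 11 members higher and 5 lower, with 3854 genes higher and 3858 lower. Deviations of libraries with the same number correlated at -0.011, 0.027 and -0.0086, so the numbers were not taken as pairs. The 9 members that did not meet the filter had few counts, and whether they passed depended on single libraries for Mx1 and Rsad2 and also on the filter for Nlrc5.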
